A study of Mus musculus with 8 samples.

Results

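In sorted growth plate cells, RNA of 9 genes that mark tissue macrophages and monocytes was measured. They were chosen by name from the 16536 genes of the count table, as 5 genes of resident macrophages (*Adgre1*, *C1qa*, *C1qb*, *C1qc*, and *Mrc1*), 1 gene of phagocyte lysosomes (*Cd68*), and 3 genes of monocytes (*F13a1*, *Ly6c2*, and *Ms4a6c*). The cells came from femoral growth plates of Pthrp-mCherry mice, in which the fluorescent protein mCherry reports the activity of *Pthlh*, the gene of parathyroid hormone-related protein. Mice received SAG, a small-molecule agonist of Smoothened that turns on Hh signaling, or its vehicle DMSO. Injections were i.p. and daily from postnatal day 30 to day 36 (the methods of the study give days that are 1 later), and the mice were sacrificed on day 38. Cells positive for mCherry and CD73 were sorted by FACS, and 1 library was made for each of 4 DMSO-treated and 4 SAG-treated mice, which all carried the reporter. The reporter marks cells by the *Pthlh* promoter and not by lineage, and the sort was not described as excluding blood cells.

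Macrophages that live in a tissue are large phagocytes that clear dying cells and debris, and in bone they sit close to growing cartilage and bone surfaces. Monocytes are made in the bone marrow, circulate in the blood, and can mature into macrophages after they enter a tissue. C1q, which starts the classical complement cascade, is built from the products of *C1qa*, *C1qb*, and *C1qc* and is made in large part by macrophages.

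CPM is a count divided by the size of its library in units of 1000000, with TMM scaling in the values below. The libraries held between 24971992 and 46593090 counts, so 3 counts corresponded to at most 0.120 CPM before that scaling. That floor covers counting error only. Chondrocyte transcripts were abundant in all 8 libraries, with *Col2a1* between 11759 and 68832 CPM, and the genes of the sort, *Pthlh* and *Nt5e* (CD73), were detected at 14.9 to 29.9 CPM and 149 to 270 CPM. The 9 genes together took 0.0542% to 0.115% of the counts of a library. DMSO replicate 4 stood apart, with Spearman's rho of 0.834 to 0.868 across genes against the other DMSO libraries, which reached 0.926 to 0.938 among themselves. Against the SAG libraries its rho was 0.859 to 0.883. It also had the fewest counts (24971992) and the fewest genes with a count (14416) of all libraries. The part of this depth in its values was not tested. Because RNA was pooled over all sorted cells of a mouse, fewer cells of a type and less RNA per cell cannot be told apart in any of the values below.

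*Ly6c2* and *Ly6c1* lie near each other on chromosome 15 and code for nearly identical surface proteins, and the start of their coding sequences is shown because the counts of *Ly6c2* depend on telling them apart. The stretches are bases 1 to 120 of the coding sequence of GENCODE release M21 (GRCm38, minus strand), 5′ to 3′, with the 6 bases that differ between the genes in capitals.
Ly6c2: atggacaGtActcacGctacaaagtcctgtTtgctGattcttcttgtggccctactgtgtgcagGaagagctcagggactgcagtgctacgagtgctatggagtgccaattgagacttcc
Ly6c1: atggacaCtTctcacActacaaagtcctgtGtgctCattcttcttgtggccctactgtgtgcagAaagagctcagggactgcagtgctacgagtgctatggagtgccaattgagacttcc
Over the whole coding sequence of 396 bases, 9 bases differed and the genes were 97.7% identical. Of all distinct 31-base words of the annotated *Ly6c2* transcripts, 23.7% also occurred in transcripts of other genes, and *Ly6c1* alone accounted for 21.4%. *Ms4a6c* had a similar share of 21.9%, mostly with *Ms4a6b* at 13.9%. *F13a1* shared 0.582% of its words, and the other 6 genes shared 0. The split of reads between *Ly6c2* and *Ly6c1*, and between *Ms4a6c* and its paralogs, is therefore uncertain.

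The promoters of *C1qb* and *C1qc* are shown because these neighbouring genes moved together from mouse to mouse, as described below. The sequences are RefSeq's (GRCm38.p6), from 250 bases before to 50 bases after the start site, at chr4:136886151-136886450 and chr4:136892865-136893164 on the minus strand. Capitals mark a match to GAGGAAG, a motif bound by PU.1, the transcription factor that macrophages depend on.
C1qb: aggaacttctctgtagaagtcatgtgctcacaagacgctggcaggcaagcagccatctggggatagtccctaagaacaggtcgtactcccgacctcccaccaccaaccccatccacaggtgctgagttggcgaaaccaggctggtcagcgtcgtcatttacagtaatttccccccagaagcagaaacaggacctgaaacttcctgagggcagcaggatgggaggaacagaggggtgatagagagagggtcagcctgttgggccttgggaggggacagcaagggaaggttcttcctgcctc
C1qc: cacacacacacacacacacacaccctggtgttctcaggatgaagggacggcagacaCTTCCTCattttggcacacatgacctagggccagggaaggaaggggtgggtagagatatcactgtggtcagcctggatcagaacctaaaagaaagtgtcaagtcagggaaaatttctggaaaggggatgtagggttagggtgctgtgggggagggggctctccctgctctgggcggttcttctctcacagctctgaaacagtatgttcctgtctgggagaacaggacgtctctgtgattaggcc
The *C1qc* promoter held 1 match, on the strand opposite to the gene, and the *C1qb* promoter held 0. Both strands of the promoters were also searched for TTGCNNAA, a motif of the C/EBP factors, and for GAAA followed after 2 bases by another GAAA, a motif of interferon regulatory factors, and neither occurred in these 2 windows. Of 32851 promoters of the same length, 13.6% held GAGGAAG, 10.8% held TTGCNNAA, and 3.44% held the spaced GAAA pair. Promoter sequences were matched for 7 of the 9 genes, and those of *C1qa* and *Adgre1* were not. Among the matched genes not shown, GAGGAAG occurred in the promoters of *Mrc1*, *F13a1*, and *Ly6c2*, and TTGCNNAA in that of *Cd68*. The promoter of *Ms4a6c* held none of these motifs.

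*Ly6c2* RNA was called higher in the sorted cells of SAG-treated mice, close to the threshold and in only 5 of 15 alternative fits. *F13a1* was lower in every SAG-treated mouse than in every DMSO-treated mouse without passing the main test, and the 5 resident macrophage genes and *Cd68* were not called. Both groups were compared over 15421 genes by the quasi-likelihood test of edgeR, with p-values adjusted by the Benjamini-Hochberg method, and all 9 genes passed the filter on low counts. Of the 9 genes, 1 was called higher (*Ly6c2*), where 2.62% of all tested genes were called higher, and 0 were called lower, where 0.266% of all tested genes were. Before adjustment, p was under 0.05 for *Ly6c2* and, in the lower direction, for 1 more gene (*F13a1*), where 9.58% of all tested genes were higher and 6.50% were lower at that level. DESeq2 and limma voom each called *F13a1* lower as well, where they called 3.35% and 2.52% of the genes they tested. The same tools called *Ly6c2* higher, beside 6.60% and 6.37% of all genes. The groups did not overlap for 1 gene that was higher and 1 that was lower, against 7.90% and 3.84% of all tested genes.

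**Figure D1:**
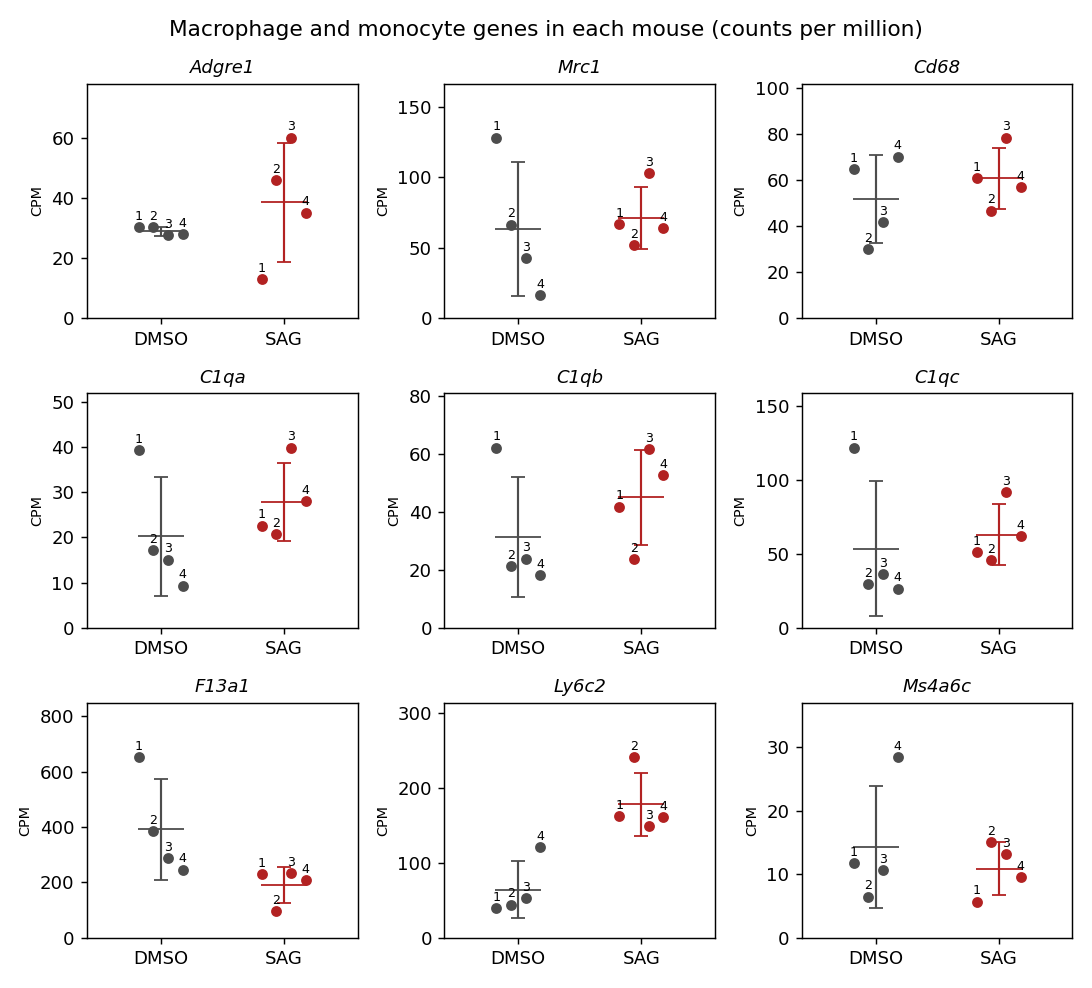
CPM of the 9 genes in each mouse, with DMSO in grey and SAG in red. Each numbered point is 1 mouse, and the bar and whiskers give the mean and SD of 4 mice. The groups separate for *F13a1* and *Ly6c2* and overlap for the other 7 genes, and DMSO replicate 1 is the highest DMSO library for *C1qa*, *C1qb*, *C1qc*, *Mrc1*, and *F13a1*.

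*Adgre1* codes for F4/80, the surface receptor by which mouse macrophages are commonly recognised, and lies at chr17:57358691-57483527 on the plus strand. Its CPM was 30.2, 30.2, 27.5, and 27.8 in DMSO replicates 1 to 4 and 12.9, 46.0, 60.0, and 35.1 in SAG replicates 1 to 4. DMSO-treated mice lay within a narrow band, whereas SAG-treated mice lay on both sides of it. The means were 28.9 ± 1.47 and 38.5 ± 19.9 CPM (SD, n = 4 each), with a log2 fold change of 0.41 ± 0.38 (SE) and a 95% interval from -0.42 to 1.25 (edgeR, adjusted p = 0.681).

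*Mrc1* codes for the mannose receptor CD206, an endocytic receptor of tissue macrophages, at chr2:14229392-14332057 on the plus strand. It was measured at 128, 66.3, 42.5, and 16.1 CPM in the DMSO libraries and at 66.5, 51.8, 103, and 63.6 CPM in the SAG libraries. Both the highest and the lowest values were DMSO libraries, and every SAG value fell between them. The log2 fold change was 0.17 ± 0.48, with an interval from -0.89 to 1.23 (edgeR, adjusted p = 0.914), and it turned to -0.12 without DMSO replicate 4 and to -0.06 without SAG replicate 3. The gene holds *Mir511* in an intron, on the same strand.

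The 3 genes of C1q form a cluster on chromosome 4 (*C1qb* at chr4:136880129-136886187, *C1qc* at chr4:136889804-136893065, and *C1qa* at chr4:136895917-136898803, all on the minus strand). *C1qa* was at 39.3, 17.2, 15.1, and 9.34 CPM in the DMSO libraries and at 22.6, 20.8, 39.9, and 28.0 CPM in the SAG libraries. *C1qb* was at 62.2, 21.4, 23.9, and 18.1 CPM in the DMSO libraries and at 41.8, 23.8, 61.6, and 52.7 CPM in the SAG libraries. DMSO replicates 2 to 4 were below all SAG libraries for *C1qa* and overlapped with SAG replicate 2 for *C1qb*, and for both genes DMSO replicate 1 lay near the highest SAG library.

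*C1qc* was at 122, 29.4, 36.6, and 26.5 CPM in the DMSO libraries and at 51.3, 45.8, 92.1, and 62.2 CPM in the SAG libraries. As for the other C1q genes, DMSO replicate 1 exceeded the other DMSO libraries, and here it was the highest of all 8. The log2 fold changes were 0.46 ± 0.43 for *C1qa*, 0.52 ± 0.42 for *C1qb*, and 0.23 ± 0.46 for *C1qc*, and none passed the test (edgeR, adjusted p = 0.682, 0.632, and 0.881). Their intervals ran from -0.48 to 1.39, from -0.41 to 1.44, and from -0.79 to 1.24. Without DMSO replicate 1 the log2 fold changes were 1.01, 1.09, and 1.03, still not called (adjusted p = 0.24, 0.172, and 0.135), and *C1qc* fell to -0.01 without SAG replicate 3.

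The ratios among the 3 C1q genes varied from mouse to mouse in both groups. The count of *C1qa* was 0.515 to 0.876 times that of *C1qb*, and the count of *C1qc* was 1.18 to 1.97 times that of *C1qb*, over all 8 libraries. Group means of these ratios were 0.645 ± 0.119 with DMSO and 0.649 ± 0.160 with SAG for *C1qa*, and 1.58 ± 0.263 and 1.46 ± 0.343 for *C1qc* (SD, n = 4 each). After the group means were taken away, Pearson's r of log2 CPM over the 8 libraries was 0.91 between *C1qa* and *C1qb*, and 0.94 for *C1qc* with each of them. *Mrc1* varied with *C1qa*, *C1qb*, and *C1qc* at r = 0.94, 0.78, and 0.80, and *Adgre1* at r = 0.29, 0.08, and 0.24. These values describe 8 libraries, and all genes of a library share its depth and cell composition, which differed between libraries.

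*Cd68* codes for a lysosomal membrane protein of phagocytes, at chr11:69664213-69666153 on the minus strand. Its CPM was 64.8, 30.1, 41.8, and 70.2 in the DMSO libraries and 60.9, 46.7, 78.4, and 57.0 in the SAG libraries. The groups overlapped over most of their range. The log2 fold change was 0.23 ± 0.29, with an interval from -0.40 to 0.87, the narrowest of the 9 genes (edgeR, adjusted p = 0.780).

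*Ly6c2* codes for the Ly6C surface protein, the usual label of inflammatory monocytes in mice that neutrophils also carry, and lies at chr15:75108158-75111970 on the minus strand. It was at 39.0, 44.3, 52.4, and 121 CPM in the DMSO libraries and at 162, 241, 149, and 161 CPM in the SAG libraries. Every SAG library was above every DMSO library, and DMSO replicate 4 lay closest to them. The means were 64.1 ± 38.2 and 178 ± 42.1 CPM (SD, n = 4 each), a ratio of 2.78. The log2 fold change was 1.48 ± 0.35, with an interval from 0.72 to 2.24 (edgeR, adjusted p = 0.0452). The value passed the threshold in 5 of 15 alternative fits, with adjusted p between 0.00071 and 0.165, and leaving out any library other than DMSO replicate 4 moved it above 0.05. Without DMSO replicate 4 the log2 fold change was 2.01 (edgeR, adjusted p = 0.000817).

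*F13a1* codes for the A subunit of coagulation factor XIII, a transglutaminase that crosslinks fibrin and is made by monocytes and macrophages and also by cartilage and bone cells. It lies at chr13:36867178-37050244 on the minus strand, where 2 antisense genes overlap it. Its CPM was 651, 386, 286, and 246 in the DMSO libraries and 230, 95.4, 232, and 209 in the SAG libraries. All SAG libraries were below all DMSO libraries, by a small margin between DMSO replicate 4 and SAG replicate 3. The means were 392 ± 182 and 191 ± 64.8 CPM (SD, n = 4 each), with a log2 fold change of -1.03 ± 0.34 and an interval from -1.79 to -0.28 (edgeR, adjusted p = 0.147). The adjusted p was 0.0349 with DESeq2, 0.0448 with limma voom, and 0.0476 without DMSO replicate 4, and it lay between 0.0349 and 0.340 over the 15 alternatives. Without DMSO replicate 1 the log2 fold change was -0.67.

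*Ms4a6c* codes for a membrane protein of the MS4A family and lies at chr19:11469366-11482192 on the plus strand, with a gene on the opposite strand whose exons overlap it. Its CPM was 11.7, 6.48, 10.6, and 28.4 in the DMSO libraries and 5.69, 15.1, 13.2, and 9.53 in the SAG libraries. DMSO replicate 4 was the highest of all libraries, and the other 7 overlapped. The log2 fold change was -0.39 ± 0.51, with an interval from -1.50 to 0.72 (edgeR, adjusted p = 0.789), and it was 0.15 with limma voom and 0.21 without DMSO replicate 4.

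**Figure D2:**
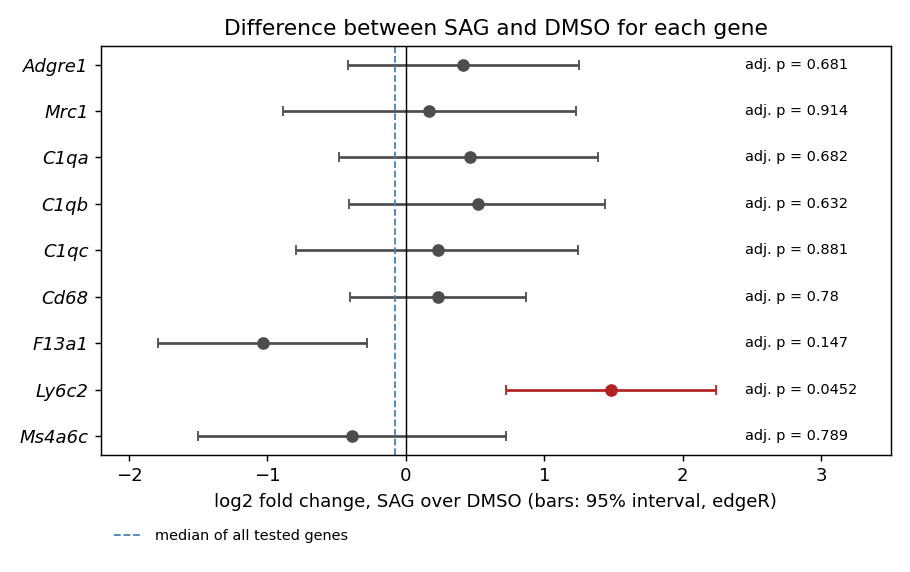
Log2 fold change of SAG over DMSO for the 9 genes (points) with 95% intervals (bars) from edgeR. Red marks an adjusted p under 0.05, and the dashed line is the median of all tested genes at -0.08. Only the intervals of *Ly6c2* (0.72 to 2.24) and *F13a1* (-1.79 to -0.28) leave out 0, and they lie on opposite sides of it.

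Of the 3 monocyte genes, 1 passed the main test. The count of *Ly6c2* was 0.06, 0.115, 0.183, and 0.492 times that of *F13a1* in the DMSO libraries and 0.707, 2.53, 0.644, and 0.771 times in the SAG libraries. The ratio was higher in every SAG library than in every DMSO library. Against *Adgre1*, the count of *Ly6c2* was 1.29 to 4.36 times as large in the DMSO libraries and 2.49 to 12.5 times as large in the SAG libraries, and these ranges overlapped. Summed over the 5 resident macrophage genes, expression was 97.9 to 382 CPM in the DMSO libraries and 188 to 357 CPM in the SAG libraries, and summed over the 3 monocyte genes it was 349 to 702 CPM and 352 to 398 CPM. *F13a1*, which moved with chondrocyte markers as described below, gave a mean of 392 of the 471 CPM of the monocyte sum with DMSO. With SAG it gave 191 of 381 CPM.

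Levels were compared between genes as CPM per kilobase of the longest protein-coding transcript. In DMSO libraries *F13a1* was highest (99.2 ± 46.1 CPM per kilobase, SD), followed by *Ly6c2* (78.0 ± 46.5), *C1qc* (44.6 ± 38.2), *Cd68* (42.1 ± 15.4), *C1qb* (28.9 ± 19.0), *C1qa* (19.4 ± 12.6), *Mrc1* (11.8 ± 8.89), *Adgre1* (8.93 ± 0.453), and *Ms4a6c* (7.77 ± 5.26). Each neighbouring pair in that order overlapped between its ranges. In SAG libraries *Ly6c2* was highest (217 ± 51.2 CPM per kilobase) and did not overlap with the next gene, *C1qc* (52.2 ± 17.2). *Cd68*, *F13a1*, *C1qb*, and *C1qa* followed, from 49.4 ± 10.7 down to 26.8 ± 8.25, and *C1qa* was separated from *Mrc1* (13.3 ± 4.15), below which came *Adgre1* and *Ms4a6c*. The place of *Ly6c2* depended on the length used, because the annotation includes a long transcript with a retained intron: over the union of exons it was 23.4 ± 14.0 with DMSO and 65.1 ± 15.4 with SAG, the fifth and the first in order, and the latter overlapped with *Cd68*. Places of other genes changed as well. By that length *F13a1* (58.2 ± 27 with DMSO) was still highest with DMSO, followed by *Cd68* (41.2 ± 15.1). With SAG, *Adgre1* (11.9 ± 6.14) then came before *Mrc1* (11.2 ± 3.5).

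Neutrophil markers moved in the same libraries as *Ly6c2*. Of 11 neutrophil markers, 10 were called higher and the last, *Ly6g*, was not, and all 11 were without overlap between the groups. Over all tested genes, 2.62% were called higher, and 7.90% were higher without overlap. *S100a8*, *S100a9*, and *Retnlg*, which are abundant neutrophil transcripts, rose with log2 fold changes of 2.25 ± 0.33, 2.00 ± 0.29, and 2.01 ± 0.30 (edgeR, adjusted p = 0.0102 for each), and the chemokine receptor *Cxcr2* and the iron-binding protein gene *Lcn2* rose by 1.57 ± 0.24 and 2.17 ± 0.35. No neutrophil marker was at 0 in any library. Their summed expression was 5976, 5004, 9597, and 13597 CPM in the DMSO libraries and 26286, 44164, 30192, and 39101 CPM in the SAG libraries.

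Per neutrophil transcript the groups did not separate for *Ly6c2*. The count of *Ly6c2* was 0.653%, 0.884%, 0.546%, and 0.889% of the summed neutrophil marker counts in the DMSO libraries and 0.617%, 0.546%, 0.494%, and 0.413% in the SAG libraries. The groups overlapped, and the SAG mean was the lower one (0.743% ± 0.172 against 0.517% ± 0.0863, SD, n = 4 each). The log2 ratio changed by -0.51, the opposite sign to that of *Ly6c2* on the CPM scale (exact 2-sided permutation test over 70 relabellings, p = 0.0857, adjusted p = 0.171 over 2 such ratios, smallest possible p = 0.0286). With the p of the other ratio as it was, even the smallest possible p would have stayed above 0.05 after adjustment. The adjusted test could therefore not call a difference. After the group means were taken away, the median r with *Ly6c2* was 0.810 for the 11 neutrophil markers and 0.813 for 4 B-lineage markers, a list with genes that were called lower, that of the chondrocyte markers was -0.880, and that of all 9303 genes searched was 0.012. The part of neutrophil RNA in the *Ly6c2* value was not tested beyond these ratios.

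*F13a1* moved in the same libraries as the chondrocyte markers. Of 9 such markers, 0 were called by edgeR, while p was under 0.05 before adjustment for all 9, each lower, and DESeq2 and limma voom called 5 and 8 of them lower. Over all tested genes, edgeR called 0.266% lower, and 6.50% were lower with p under 0.05 before adjustment. DESeq2 and limma voom called 3.35% and 2.52% of the genes they tested lower. Their log2 fold changes were all below 0, from -1.99 to -0.83 with a median of -1.02, among them *Col2a1* (-1.02 ± 0.35) and *Col11a1* (-0.91 ± 0.34), which code for cartilage collagens, and *Acan* (-0.86 ± 0.36), which codes for aggrecan. None of the 9 was at 0 in any library. Their summed expression was 96521, 84780, 74151, and 43186 CPM in the DMSO libraries and 44302, 16758, 40527, and 47442 CPM in the SAG libraries, and SAG replicate 2 was lowest both for this sum and for *F13a1*.

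Per chondrocyte transcript the groups did not separate for *F13a1*. Its count was 0.674%, 0.455%, 0.386%, and 0.569% of the summed chondrocyte marker counts in the DMSO libraries and 0.518%, 0.569%, 0.572%, and 0.441% in the SAG libraries. The groups overlapped, with means of 0.521% ± 0.127 and 0.525% ± 0.0612 (SD, n = 4 each) and a log2 difference of 0.04 (exact 2-sided permutation test, p = 0.914, adjusted p = 0.914 over 2 such ratios). The median r of the chondrocyte markers with *F13a1*, after the group means were taken away, was 0.879. It was 0.723 for 10 other tissue macrophage genes and -0.450 for 10 other monocyte genes that were abundant enough to be searched, and *F13a1* varied with *C1qa*, *C1qb*, and *C1qc* at r = 0.81, 0.91, and 0.76. The part of chondrocyte RNA in the *F13a1* value was not tested beyond these ratios.

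**Figure D3:**
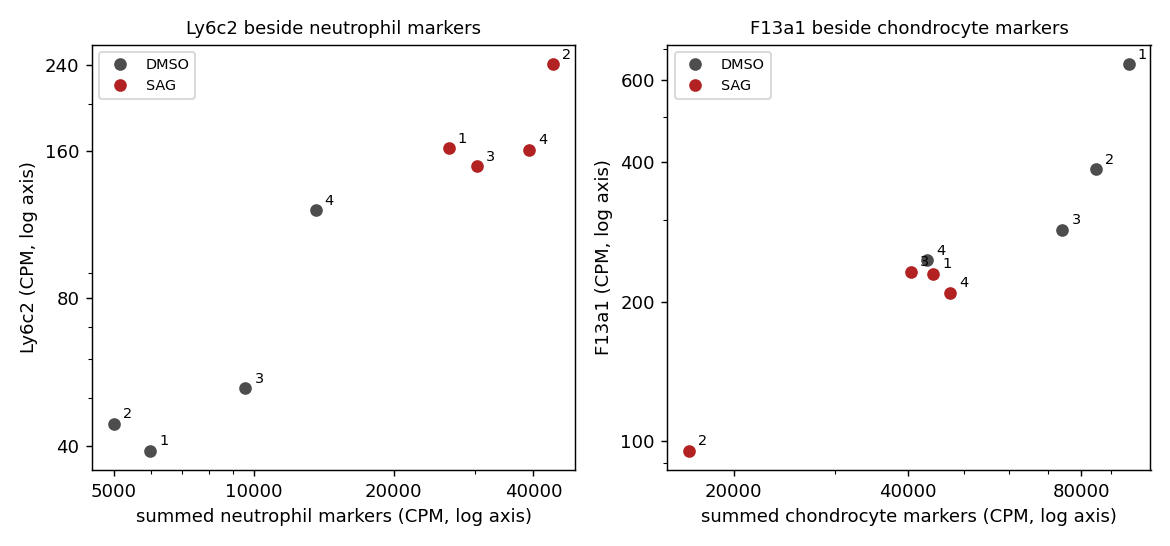
Left, *Ly6c2* against the summed neutrophil markers, and right, *F13a1* against the summed chondrocyte markers, in CPM on log axes. Each numbered point is 1 mouse, with DMSO in grey and SAG in red. SAG libraries lie at the upper right on the left (26286 to 44164 CPM of neutrophil markers), and on the right *F13a1* is highest where chondrocyte markers are highest (651 CPM in DMSO replicate 1) and lowest where they are lowest (95.4 CPM in SAG replicate 2).

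Other genes of the same cells were read against the same shares of all tested genes, 2.62% called higher and 0.266% called lower by edgeR. The shares were 6.60% and 3.35% with DESeq2 and 6.37% and 2.52% with limma voom. Of 22 other tissue macrophage genes, 0 were called by edgeR, 1 higher and 1 lower had p under 0.05 before adjustment, DESeq2 called 1 (*Mertk*, lower), and limma voom called 2 (*Mertk*, lower, and *Slc40a1*, higher). Their median log2 fold change was -0.20, against -0.08 over all tested genes. *Csf1r*, the receptor for the growth factor of macrophages, was at 52.5 to 132 CPM with DMSO and 75.8 to 118 CPM with SAG (log2 fold change 0.17 ± 0.30, edgeR, adjusted p = 0.853). *Slc40a1*, the iron exporter ferroportin, was at 48.8 to 70.8 CPM and 76.7 to 108 CPM without overlap (0.59 ± 0.20, edgeR, adjusted p = 0.161). Summed over the 22 genes, expression was 407 to 1078 CPM with DMSO and 489 to 721 CPM with SAG, and *Marco*, *Cd5l*, *Vsig4*, and *Fcrls* were at 0 in at least 1 library.

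Of 14 other monocyte genes, 0 were called by edgeR, while p was under 0.05 before adjustment for 3 that were higher and 1 that was lower, beside the 9.58% and 6.50% of all tested genes given above. DESeq2 called 2 of them higher (*Cd14* and *Fcgr4*), and limma voom called 1 (*Cd14*), where they called 6.60% and 6.37% of all genes they tested higher. *Cd14*, the coreceptor for bacterial lipopolysaccharide, came closest. It was at 48.5, 73.9, 92.0, and 148 CPM in the DMSO libraries and at 174, 199, 288, and 204 CPM in the SAG libraries, without overlap (log2 fold change 1.26 ± 0.31, edgeR, adjusted p = 0.0543, from 0.00208 to 0.169 over 15 alternatives). Without DMSO replicate 4, 3 of the 14 genes were called higher (*Cd14*, *Fcgr4*, and *Mpeg1*). That fit called 1017 genes higher over all genes, against 404 in the main fit. The nuclear receptor gene *Nr4a1* had a log2 fold change of 0.39 ± 0.21 and *Mpeg1*, the gene of perforin-2, one of 0.67 ± 0.30 (adjusted p = 0.413 and 0.302). The median over the 14 genes was 0.17, and 8 lay above 0 and 6 below. Among those below was *Irf8*, the gene that was lower before adjustment (log2 fold change -1.17 ± 0.52, edgeR, adjusted p = 0.292). *Ccr2* was also below 0 (-0.69 ± 0.43, adjusted p = 0.490).

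Of 13 genes of the classical complement pathway and its receptors, 1 was called higher and 0 lower by edgeR. *C5ar1*, the receptor for the anaphylatoxin C5a on neutrophils and other myeloid cells, rose from 47.7, 53.0, 48.8, and 66.3 CPM in the DMSO libraries to 133, 205, 143, and 160 CPM in the SAG libraries (log2 fold change 1.57 ± 0.20, edgeR, adjusted p = 0.00964, called in 15 of 15 alternatives). *C3*, the central component of all complement pathways, was at 317 to 1010 CPM and 1262 to 2083 CPM without overlap (1.29 ± 0.31, adjusted p = 0.0517, from 0.00261 to 0.173 over the alternatives). The scavenger receptor gene *Lrp1* and the chaperone gene *Calr*, both abundant, had log2 fold changes of -0.78 ± 0.32 and 0.01 ± 0.30 (adjusted p = 0.249 and 0.992). The 4 genes of C1r, C1s, and C4, which act after C1q in the cascade, and of a relative of C1r (*C1ra*, *C1rl*, *C1s1*, and *C4b*) were not called.

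Among 15 tested paralogs and relatives of the 9 genes, 1 was called higher and 0 lower. *Ly75* codes for DEC-205, an endocytic receptor of the family of *Mrc1*, and rose from 31.0 to 79.3 CPM with DMSO to 110 to 218 CPM with SAG (log2 fold change 1.59 ± 0.33, edgeR, adjusted p = 0.0290, from 0.000751 to 0.105 over the alternatives, called in 9 of 15). *Ly6c1*, the near-copy of *Ly6c2*, was at 10.3, 1.72, 0.393, and 0 CPM in the DMSO libraries and at 3.36, 6.04, 3.51, and 5.77 CPM in the SAG libraries. It had 26.5% as many counts as *Ly6c2* in DMSO replicate 1 and at most 3.88% in the other 7 libraries (log2 fold change 0.58 ± 1.26, adjusted p = 0.887). The paralogs of *Ms4a6c*, *Ms4a6b* and *Ms4a6d*, together had 0.305 to 1.80 times its counts, with log2 fold changes of 0.18 ± 0.61 and -1.09 ± 0.78 (adjusted p = 0.931 and 0.562). *Lamp1*, *Lamp2*, and *Ly6e*, the most abundant of the relatives, had log2 fold changes of 0.03 ± 0.21, 0.37 ± 0.22, and -0.68 ± 0.33 and were not called (adjusted p = 0.970, 0.476, and 0.338).

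**Figure D4:**
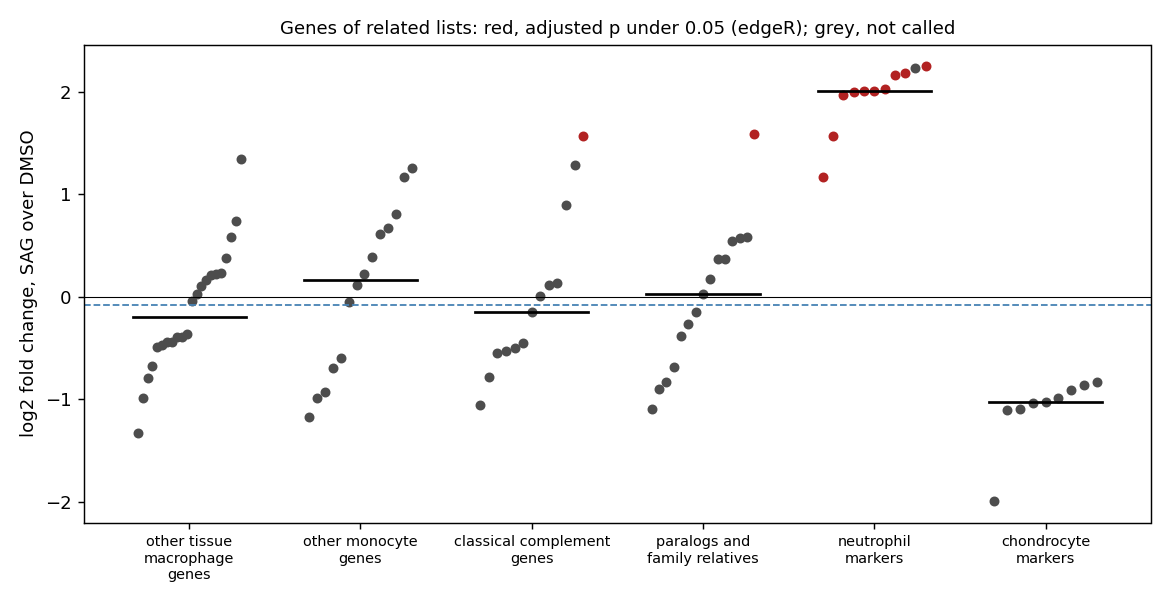
Log2 fold changes of SAG over DMSO for genes of related lists, where each point is 1 gene, red points have an adjusted p under 0.05 (edgeR), short bars are list medians, and the dashed line is the median of all tested genes. The medians of other tissue macrophage genes (-0.20) and other monocyte genes (0.17) lie near that line, those of neutrophil markers (2.01) and chondrocyte markers (-1.02) lie away from it, and *C5ar1* and *Ly75* are the only red points of the first 4 lists.

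Markers of the remaining cell types were compared over the same libraries. Of 6 tested B-lineage markers, 3 were called lower, where 0.266% of all tested genes were. Among the 3 were *Pax5* and *Cd79a* (log2 fold changes -3.61 ± 0.54 and -2.67 ± 0.58, edgeR, adjusted p = 0.0102 and 0.0329). The B-lineage list summed to 72.4 to 310 CPM with DMSO, highest in DMSO replicate 4, and to 15.2 to 35.8 CPM with SAG. No marker of dendritic cells, T and NK cells, erythroid cells, megakaryocytes, osteoclasts, endothelial cells, or osteoblasts and stroma was called by edgeR. The summed dendritic cell markers were at 48.6, 48.7, 48.9, and 115 CPM in the DMSO libraries and at 32.7 to 53.1 CPM in the SAG libraries. DMSO replicate 4, which had the highest *Ly6c2* and *Ms4a6c* of its group, thus also had the highest dendritic cell, B-lineage, and erythroid sums of all libraries, and the part of this difference in the values of *Ly6c2* and *Ms4a6c* was not tested.

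Genes that followed *Ly6c2* and the mean of the 3 C1q genes most closely from mouse to mouse were sought. The search covered 9303 genes outside the 9, with a mean of at least 10 CPM. It used Pearson's r of log2 CPM over the 8 libraries after the group means were taken away. Those closest to *Ly6c2* were *Tpr* (r = 0.993), *Dsn1* (0.990), *Selplg* (0.985), *Stk10* (0.984), and *Slc9a3r1* (0.982). *Selplg* codes for the ligand of P-selectin on leukocytes, and *Tpr* for a protein of the nuclear pore. Those closest to the mean of the 3 C1q genes were *Gemin7* (0.976), *Selenop* (0.973), *Gas1* (0.960), *Ctsb* (0.956), and *Syt12* (0.948), of which *Ctsb* codes for the lysosomal protease cathepsin B. The median r with the C1q genes was 0.679 for 10 other tissue macrophage genes in the search and 0.646 for the 9 chondrocyte markers, against 0.006 over all genes searched.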

How the data were processed

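RNA-seq was performed on sorted cells of 4 mice given DMSO and 4 given SAG. RNA was isolated with the RNeasy micro kit, and a SMARTer pico input kit gave stranded libraries. The authors deposited 1 table of counts per gene and library, and the submitters' processing notes name kallisto, DESeq2, and GRCm38, so the deposited values were treated as estimated counts given as whole numbers. Versions, annotation, and settings were not given in the sources used here. Each library is 1 mouse.

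Genes were filtered by filterByExpr, scaled by TMM, and compared by the robust quasi-likelihood test of edgeR 4.0.16 (R 4.3.3) (adjustment by Benjamini-Hochberg, threshold 0.05). DESeq2 1.42.0, limma 3.58.1 (voom with quality weights), other scalings and filters, a replicate block, and each library left out in turn were alternatives. TMM factors entered CPM, and log2 CPM had a prior count of 2. The fits were tested on simulated data. Python used pandas 2.3.3, scipy 1.17.1, and matplotlib 3.10.9.

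Of the 16536 symbols, 16524 were found in GENCODE release M21, which gave coordinates. The named genes were the 9 members, the called genes of each list (at most 5, or the 3 with the highest mean CPM where none was called), the 3 most abundant of each related list, the paralogs of *Ly6c2* and *Ms4a6c*, and the 5 genes most similar to *Ly6c2* and to the C1q genes. *Irf8* and *Ccr2* were named in addition, as monocyte genes below 0. The members and lists were chosen with earlier results of these data known. The ratios to marker sums, the genes similar to *F13a1*, and the lengths behind levels per kilobase were chosen after the values were seen. Protein sequences were not used here. Values of 2 genes that the rule names are not reported here.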

Additional observations from a re-analysis of the deposited data

Results flagged for a closer look

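Of 60 sets of 4 libraries (the 9 genes, 6 ratios, and 15 list sums, each within DMSO and within SAG, on the log2 scale), 4 had a library far from the other 3, by a gap of more than 0.829 of the whole range, which chance gives in about 1 of 20 sets. SAG replicate 2 was far below the other SAG libraries for *F13a1* (6.58 against 7.71 for the nearest, a gap of 0.885 of the range). The same library was far above them in the ratio of *Ly6c2* to *F13a1* counts (1.34 against -0.38, gap 0.868) and far below them in the summed chondrocyte markers (14.03 against 15.31, gap 0.849). DMSO replicate 4 was far above the other DMSO libraries in the summed dendritic cell markers (6.84 against 5.61, gap 0.992). Without SAG replicate 2 the log2 fold change of *F13a1* was -0.81 (edgeR, adjusted p = 0.325, where the 15 alternatives ranged from 0.0349 to 0.340).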

How the results depend on the processing

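Over all genes, edgeR called 404 higher and 41 lower. DESeq2 called 812 and 413, limma voom 982 and 388, at least 10 counts in every library gave 87 lower, and leaving out 1 library gave 80 (without DMSO replicate 2) to 1017 (without DMSO replicate 4) higher and 4 (without DMSO replicate 3) to 343 (without DMSO replicate 4) lower. Of the 9 genes, 1 was called higher, and this became 0 with DESeq2 size factors, with plain library sizes, and without a filter on low counts, and 0 to 1 with 1 library left out. The number called lower was 0, and became 1 with DESeq2, with limma voom, and in the range 0 to 1 with 1 library left out (1 without DMSO replicate 4). Leaving out a library also lowered the number of mice, and the cause of the other changes was not tested.

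The sign turned for 3 genes that were not called. With 1 library left out, *C1qc* ranged from -0.01 (without SAG replicate 3) to 1.03, *Mrc1* from -0.12 (without DMSO replicate 4, and -0.06 without SAG replicate 3) to 0.78, and *Ms4a6c* from -0.63 to 0.21 (without DMSO replicate 4), and *Ms4a6c* was 0.15 with limma voom. It also turned for *Ly6c2* relative to neutrophil markers (-0.51) and for *F13a1* relative to chondrocyte markers (0.04), both ratios chosen after seeing the data. Of 137 recomputed log2 fold changes of the 9 genes, 117 kept their sign and their side of the threshold.

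Whether the replicate numbers pair the mice could not be settled from the values. Deviations of libraries with the same number correlated at 0.12, 0.0219, 0.0195, and 0.0102, and libraries with different numbers were not compared in this way. With a replicate block, edgeR called 334 genes higher and 18 lower, and 1 of the 9 genes was higher (*Ly6c2*, 1.62, adjusted p = 0.0488). With 4 mice a group, the intervals of the resident macrophage genes still held changes of more than 1 on the log2 scale.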

Other observations

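The genes closest to *F13a1* from mouse to mouse, a search added after its values were seen, were *Mamdc2* (r = 0.983), *Cltb* (0.982), *Rbfox2* (0.982), *Dag1* (0.981), and *Tmtc1* (0.969), over 8 libraries after the group means were taken away. *Dag1* codes for dystroglycan, a receptor for extracellular matrix, and *Cltb* for a clathrin light chain. The log2 fold changes of all 5 were below 0, from -0.86 for *Mamdc2* to -0.42 for *Dag1*, as was that of *F13a1* at -1.03. The median r with *F13a1* was 0.723 for 10 other tissue macrophage genes, 0.879 for 9 chondrocyte markers, and -0.678 for 11 neutrophil markers. These are descriptions of 8 libraries, and all genes of a library share its depth and composition.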
